A study of Mus musculus with 11 samples.

Results

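The 5 genes *Plau*, *Plat*, *Plaur*, *Serpine2* and *Serpinb2* of the plasminogen activation system encode its activators, receptor and inhibitors, and they were followed in mouse keratinocytes. They were listed by gene symbol for these roles, and all 5 were among the 24421 genes of the count tables. Plasminogen activators cut the circulating zymogen plasminogen into plasmin, a protease that dissolves fibrin and cleaves matrix proteins. The urokinase-type activator encoded by *Plau* works at the cell surface bound to its receptor, uPAR, while serpins trap the activators in inactive complexes. In healing skin, keratinocytes at the wound edge migrate beneath a fibrin-rich clot, and plasmin is known for opening that path.

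RNA-seq and ATAC-seq were performed on epidermal keratinocytes sorted from mice (C57BL/6 in the labels, C57BL/6J in the study's methods), either from the margin of a back-skin wound or from unwounded skin. The mice were 8 weeks old, wounds were made with a 4 mm punch, and 1 mm of the wound margin was taken 3 days later. WT and *Grhl3*-cKO (labelled GRHL3 KO) littermates were compared, to ask which wound responses depend on the epidermal transcription factor GRHL3. In the *Grhl3*-cKO mice, floxed *Grhl3* was deleted by Cre driven by the keratin 14 promoter, which is active in basal keratinocytes and their progeny. The study's methods give the WT littermates as carrying the same Cre. There were 2 RNA-seq libraries each from WT unwounded, WT wounded and cKO wounded keratinocytes and 1 from cKO unwounded keratinocytes. ATAC-seq gave 1 peak list for each of the 4 conditions, from 4 wounds of 2 mice pooled. The labels do not tie RNA-seq libraries to animals, so p-values measure the spread between these libraries.

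Counts on genes totalled between 13497283 and 16807451 per library. Levels are given as CPM, each count scaled by its library's total on genes, and 1 count was worth 0.0595 to 0.0741 CPM. Replicate libraries differed by more than sampling noise: their chi-square, divided by its degrees of freedom, was 29.2 or more. The targeted gene *Grhl3* was at 122 and 83.2 CPM in WT unwounded, 110 and 90.0 CPM in WT wounded, 76.2 CPM in cKO unwounded and 116 and 104 CPM in cKO wounded libraries. Since reads from any exon of a gene enter its count, the floxed exons are not seen apart, and the genotype is taken from the labels. The study checked the deletion in its mice by qPCR across the floxed part and by immunostaining, and the counts allow no such check of each library. The libraries are called cKO-labelled from here on. Wound keratin *Krt16* was at 1790 and 2009 CPM in WT unwounded and 1344 CPM in the cKO-labelled unwounded library, and between 2152 and 3350 CPM in the 4 wounded libraries. The leading-edge integrin *Itga5* was at 12.0 to 20.6 CPM in unwounded and 15.3 to 45.6 CPM in wounded libraries. *Krt6b*, another wound keratin, was at 4.15 to 266 CPM in unwounded and 233 to 1075 CPM in wounded libraries, so that its groups overlapped.

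The cells were keratinocytes by their markers. The summed level of 6 basal keratinocyte genes, *Krt14* among them, was between 30890 and 44746 CPM in every library, and that of 5 suprabasal genes, *Krt1* among them, between 3275 and 8711 CPM. Sorting kept cells with integrin α6 (CD49F) and left out those with CD45, CD31 or TER119, markers of leukocytes, endothelial cells and the erythroid lineage. RNA of other cell types was still counted at low levels. The summed level of 6 endothelial genes was 1.55 and 2.74 CPM in WT unwounded, 0.815 CPM in cKO-labelled unwounded, 22.5 and 9.92 CPM in WT wounded and 9.39 and 7.70 CPM in cKO-labelled wounded libraries. This sum was higher in all 4 wounded than in all 3 unwounded libraries. Of single genes, *Cdh5* (0.788 to 6.42 against 0 to 0.773 CPM) and *Kdr* (0.324 to 4.56 against 0 to 0.258 CPM) were higher in all wounded libraries as well. *Pecam1* overlapped, at 1.05 to 6.00 CPM in wounded and 0.0646 to 1.37 CPM in unwounded libraries, as did *Tek*, *Emcn* and *Egfl7*. The 6 fibroblast genes summed to 11.04 to 28.7 CPM in unwounded and 19.6 to 46.6 CPM in wounded libraries. The 5 mural and smooth muscle genes summed to 1.11 to 3.93 CPM in unwounded and 2.04 to 30.6 CPM in wounded libraries. The 6 leukocyte genes summed to 0.323 to 0.833 CPM in unwounded and 1.56 to 4.20 CPM in wounded libraries, and their defining gene *Ptprc* was at 0 in 5 libraries and at 0.535 and 0.723 CPM in the others. The 4 melanocyte genes summed to 0.952 to 2.52 CPM in unwounded and 3.89 to 7.15 CPM in wounded libraries. Like the endothelial sum, the leukocyte and melanocyte sums were higher in all 4 wounded than in all 3 unwounded libraries. Of their single genes, only *Lyz2* (0.591 to 2.80 against 0 CPM) and *Dct* (2.40 to 4.74 against 0.238 to 0.775 CPM) were higher in all wounded libraries. The sum of 6 hair follicle genes was highest in the cKO-labelled unwounded library, at 5670 CPM, of which *Krt15* made up 4746 CPM, against 3718 and 3572 CPM in WT unwounded and 2568 to 3085 CPM in wounded libraries. Of the 6, *Lhx2* and *Krt75* were not highest in that library. The 5 wound keratinocyte genes, *Krt16* among them, summed to 2623 CPM in the cKO-labelled unwounded library, 4469 and 5570 CPM in WT unwounded and 4850 to 9689 CPM in wounded libraries.

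One library stood apart. The cKO-labelled unwounded library had 14854 counts of *Xist*, which is expressed from the inactive X chromosome of females, and 0 counts summed over 4 Y-linked genes. Elsewhere *Xist* was at 3 to 32 counts, and the Y-linked sum at 2580 to 3589. It was the only library of its group, so sex, genotype and wounding cannot be told apart in any difference that rests on it. The tested wound comparison of all libraries is therefore given with and without it, and where other values rest on it this is said.

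The 5 genes covered a wide range of levels. Compared per length of exons, as RPKM (CPM per 1 kb of exons), the mean level over the 7 libraries was 510 for *Serpinb2*, 27.2 for *Plau*, 5.16 for *Plaur*, 3.45 for *Plat* and 0.583 for *Serpine2*. *Serpinb2*, which encodes the intracellular and secreted inhibitor PAI-2, was the most abundant of the 5 in every library, at 322 to 624 RPKM. *Plau* came next in every library, at 11.4 to 44.1 RPKM. *Plaur* and *Plat* overlapped, with 1.82 to 8.21 RPKM against 2.39 to 4.76 RPKM, and did not keep one order. *Serpine2* was lowest in every library, at 0.321 to 1.11 RPKM. Of the activators, *Plau* was thus ahead of *Plat* per length by 2.90-fold in the cKO-labelled unwounded library and by 5.40-fold to 13.8-fold in the other 6. *Serpinb2* was ahead of *Plau* per length by between 9.16-fold and 53.4-fold, with the highest ratio in the cKO-labelled unwounded library.

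*Plau* encodes the urokinase-type plasminogen activator, uPA, and lies on chromosome 14 from 20836660 to 20843385 (mm10, plus strand). It was at 50.4 and 70.7 CPM in WT unwounded and at 60.1 and 103 CPM in WT wounded libraries. The cKO-labelled libraries were at 26.7 CPM before and at 64.4 and 71.1 CPM after wounding. The WT groups overlapped, and the cKO-labelled unwounded library was the lowest of the 7. Means of the pairs of libraries were 60.6 ± 14.4 CPM for WT unwounded, 81.6 ± 30.5 CPM for WT wounded and 67.7 ± 4.74 CPM for cKO-labelled wounded keratinocytes (± SD, n = 2 each).

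*Plat* encodes the tissue-type activator, tPA, best known for dissolving fibrin in blood vessels, and lies on chromosome 8 from 22757727 to 22782844 (plus strand). It was at 9.30 and 8.57 CPM in WT unwounded, 12.0 and 8.04 CPM in WT wounded, 9.93 CPM in cKO-labelled unwounded and 6.04 and 7.003 CPM in cKO-labelled wounded libraries. The range over all libraries, 6.04 to 12.0 CPM, rested on 92 to 200 counts.

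*Plaur* encodes uPAR, which anchors uPA to the cell surface, and lies on chromosome 7 from 24462484 to 24475968 (plus strand). It was at 6.78 and 4.11 CPM in WT unwounded and 12.4 and 7.46 CPM in WT wounded libraries. It was at 2.74 CPM in the cKO-labelled unwounded and at 9.06 and 11.8 CPM in the cKO-labelled wounded libraries. All 4 wounded libraries were above all 3 unwounded libraries, and these levels rested on 37 to 206 counts. Of the 14045 genes tested, 2.74% were higher in all 4 wounded than in all 3 unwounded libraries, and *Plaur* was the only 1 of the 5 genes among them.

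Of the inhibitors, *Serpine2* encodes protease nexin-1, a secreted inhibitor of thrombin and of both activators, and lies on chromosome 1 from 79794197 to 79861180 (minus strand). It had 11 and 13 counts in WT unwounded, 13 and 21 in WT wounded, 33 in cKO-labelled unwounded and 14 and 29 in cKO-labelled wounded libraries. At 0.710 to 2.44 CPM these levels were too low for a change of moderate size to be detectable. *Serpinb2* lies on the same chromosome from 107511423 to 107535478 (plus strand). It was at 1284 and 662 CPM in WT unwounded, 1128 and 831 CPM in WT wounded, 1252 CPM in cKO-labelled unwounded and 1003 and 1179 CPM in cKO-labelled wounded libraries. The WT unwounded libraries were the highest and the lowest of all 7, so every other library fell between replicates of 1 group. The annotated gene overlaps the neighboring *Serpinb10* by 6476 bases, beyond the last exon of the basic *Serpinb2* transcripts.

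**Figure D1:**
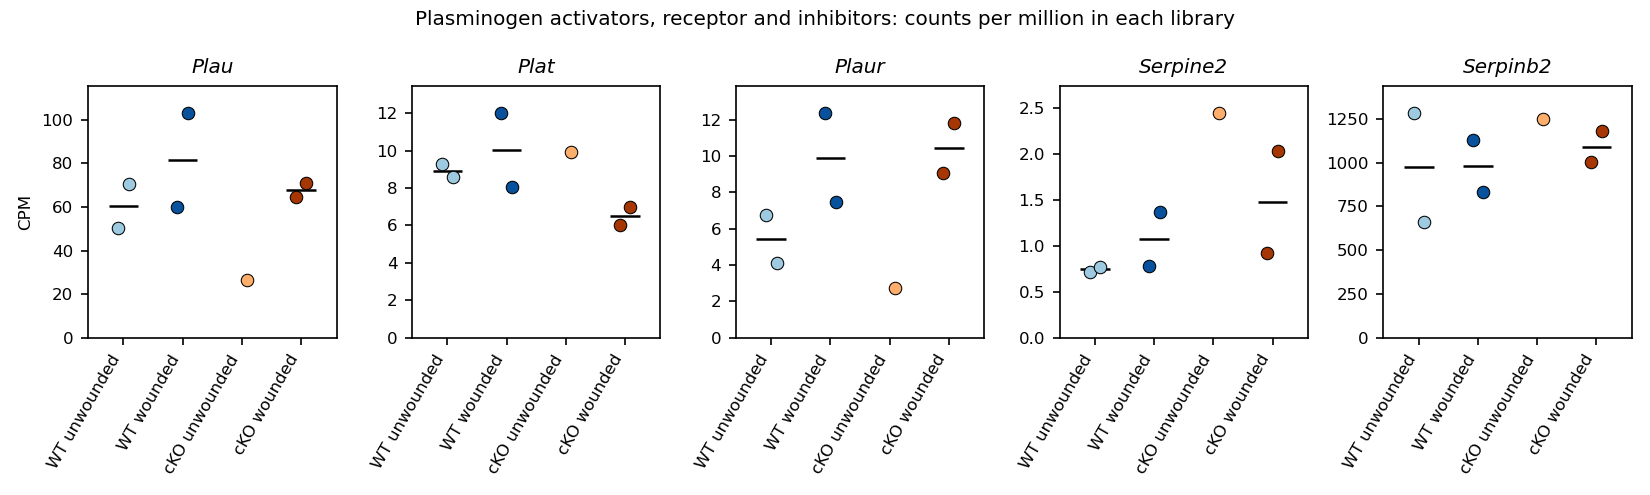
Level of each gene in each of the 7 RNA-seq libraries (points; y axis, CPM, starting at 0 in each panel), by genotype label and wounding (x axis), with lines at the mean of groups of 2 libraries. *Plaur* is at 7.46 to 12.4 CPM in the wounded and 2.74 to 6.78 CPM in the unwounded libraries, whereas the *Serpinb2* WT unwounded libraries, at 662 and 1284 CPM, span all the others.

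To ask what wounding did in both genotypes together, the 4 wounded libraries were compared with the 3 unwounded libraries in a model with genotype and wounding as terms. *Plau* and *Plaur* were higher in wounded keratinocytes by the unadjusted test and not after adjustment in this fit. The log2 fold change of *Plaur* was 1.26 (standard error 0.37, unadjusted P = 0.00421), and that of *Plau* was 0.79 (standard error 0.23, unadjusted P = 0.00416). Both had an adjusted p of 0.331 (edgeR's quasi-likelihood test, Benjamini-Hochberg over 14045 genes). Without a filter on low counts, edgeR with Benjamini-Hochberg gave an adjusted p of 0.00125 for *Plau* and 0.0449 for *Plaur*. That setting called far more genes, with 305 under an adjusted p of 0.05 against 5 with the filter. With the filter, 3.69% of all genes tested were higher with an unadjusted P under 0.05, and 0.0356% had an adjusted p under 0.05. *Plat* (−0.14, standard error 0.30), *Serpinb2* (−0.07, standard error 0.19) and *Serpine2* (−0.01, standard error 1.06) had log2 fold changes smaller than their standard errors. The summed endothelial, leukocyte and melanocyte genes were, like *Plaur*, higher in all 4 wounded libraries, and the summed hair follicle genes were lower in all 4. Their part in its level was not tested. Fewer cells of a type and less RNA per cell cannot be told apart in these bulk libraries. Without the cKO-labelled unwounded library the comparison reduces to WT alone, with a log2 fold change of 0.89 for *Plaur* (unadjusted P = 0.0543) and 0.47 for *Plau* (unadjusted P = 0.0894). The other estimates turned positive without it, at 0.19 for *Plat*, 0.03 for *Serpinb2* and 0.56 for *Serpine2*, each smaller than its standard error.

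In the WT wound response, none of the 5 genes had an unadjusted P under 0.05 in the fit of all 7 libraries, against 4.84% of all genes tested, and none had an adjusted p under 0.05, against 0.0285%. The estimate for *Plaur* was 0.89 on the log2 scale (unadjusted P = 0.0567, standard error 0.43), and that for *Plau* was 0.46 (unadjusted P = 0.0806, standard error 0.25). By edgeR, *Plau* passed the unadjusted threshold without a filter on low counts (unadjusted P = 0.0295) and with a replicate block (unadjusted P = 0.0495). The other estimates were 0.55 for *Serpine2* (standard error 1.22), 0.19 for *Plat* (standard error 0.38) and 0.03 for *Serpinb2* (standard error 0.24). Both WT wounded libraries were above both WT unwounded libraries for *Plaur* and *Serpine2*, as they were for 15.2% of all genes tested. For *Serpine2* this came from scaling alone, with 13 counts each in WT unwounded replicate 2 and WT wounded replicate 1. With 2 libraries on each side, the smallest p of an exact permutation test is 0.333, so the edgeR values depend on variances estimated with the help of other genes. The *Plau* estimate rested on 1 library: it was 0.80 without WT wounded replicate 1 (unadjusted P = 0.00418) and −0.00162 without WT wounded replicate 2 (unadjusted P = 0.995). It was 0.71 without WT unwounded replicate 2 (unadjusted P = 0.0340). That of *Plaur* ranged from 0.48 to 1.31 when single libraries were left out, and had an unadjusted P of 0.0271 without WT unwounded replicate 1 and 0.0268 without WT wounded replicate 2. *Serpinb2* went from 0.60 without WT unwounded replicate 1 (unadjusted P = 0.0166) to −0.38 without WT unwounded replicate 2 (unadjusted P = 0.101). Each of these fits leaves 1 library on 1 side, which is assumed to vary like the other groups.

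The cKO-labelled wound response was described by a rule without a test, since it had 1 unwounded library. A gene was counted when both wounded libraries lay on the same side of the unwounded library and were 2-fold or more away from it, on log2 CPM with a prior count of 2. *Plaur* was higher by 1.71 and 2.01 and *Plau* by 1.30 and 1.36 on the log2 scale, so 2 of the 5 genes were counted as higher, beside 5.69% of all genes tested. No member was counted as lower, beside 3.89% of all genes tested. The log2 differences were −0.68 and −0.54 for *Plat*, −0.29 and −0.14 for *Serpinb2* and −1.27 and −0.30 for *Serpine2*. The same unwounded library stood apart by *Xist*, by its summed hair follicle genes and by its wound keratinocyte genes, and the part of these differences in the values for *Plau* and *Plaur* was not tested. No value without it can be given for this comparison.

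The difference between the genotypes' wound responses was then fitted directly. Its cKO-labelled unwounded arm is a lone library, so its P-values take that arm's spread from the other groups. They cannot decide whether the responses differ. *Plau* differed by 0.87 on the log2 scale (standard error 0.40, unadjusted P = 0.0437), a larger response in cKO-labelled keratinocytes, with an adjusted p of 0.713 by edgeR's quasi-likelihood test. Of all genes tested, 6.77% had an unadjusted P under 0.05 and 0.185% an adjusted p under 0.05. *Plaur* differed by 1.03 (standard error 0.71), *Plat* by −0.81 (standard error 0.60), *Serpine2* by −1.30 (standard error 1.88) and *Serpinb2* by −0.24 (standard error 0.37), none with an unadjusted P under 0.05. These values rest on the lone cKO-labelled unwounded library, which is assumed to vary like the others and stood apart by *Xist*, summed hair follicle genes and wound keratinocyte genes. The *Plau* call was lost with a smaller difference without WT wounded replicate 1 (0.54, unadjusted P = 0.158) and WT unwounded replicate 2 (0.62, unadjusted P = 0.165). It was also lost with a similar difference without cKO-labelled wounded replicate 1 (0.91, unadjusted P = 0.07001) or replicate 2 (0.84, unadjusted P = 0.0956) and with at least 10 counts required in every library (0.87, unadjusted P = 0.0510). It was kept in the other 6 alternatives, with a difference of up to 1.34 (unadjusted P = 0.002) without WT wounded replicate 2. *Serpinb2* gained a call without WT unwounded replicate 1 (−0.81, unadjusted P = 0.0186).

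Between cKO-labelled wounded and WT wounded keratinocytes, a comparison that does not use the unwounded libraries' levels, none of the 5 genes had an unadjusted P under 0.05, against 4.04% of all genes tested. With Benjamini-Hochberg adjustment 0 of all genes passed by edgeR's quasi-likelihood test and 3 by DESeq2, while 567 had an unadjusted P under 0.05 by edgeR. The estimate for *Plat* was −0.60 on the log2 scale (unadjusted P = 0.137, standard error 0.38), which ranged from −0.84 to −0.29 over the alternatives. Both cKO-labelled wounded libraries were below both WT wounded libraries for *Plat*, as they were for 17.2% of all genes tested. They were also lower in the endothelial sum (9.39 and 7.70 against 22.5 and 9.92 CPM) and the mural sum (2.04 and 5.46 against 30.6 and 10.8 CPM). Of the single genes in these sums, only *Egfl7* and *Acta2* kept the groups apart, and *Pecam1*, *Cdh5*, *Kdr*, *Tek* and *Tagln* overlapped. The cKO-labelled wounded libraries were higher in the suprabasal sum (6160 and 7735 against 3275 and 4909 CPM). The part of these sums in the *Plat* value was not tested. The estimates were −0.25 for *Plau* (standard error 0.25), 0.09 for *Plaur* (standard error 0.42), 0.18 for *Serpinb2* (standard error 0.24) and 0.47 for *Serpine2* (standard error 1.21). *Plau* was at 60.1 and 103 CPM in WT wounded libraries, and its estimate was −0.59 without WT wounded replicate 1 (unadjusted P = 0.0271) and 0.21 without WT wounded replicate 2.

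Of 21 other genes of the plasminogen system, 10 passed edgeR's filter on low counts. Cathepsin B and matriptase, proteases that can activate pro-uPA, were present, with *Ctsb* at 81.6 to 104 RPKM and *St14* at 22.6 to 34.4 RPKM. The annexin A2 heterotetramer, a cell surface receptor for plasminogen and tPA, is made of *Anxa2* and *S100a10* products, which were at 835 to 1218 RPKM and 424 to 611 RPKM. *Lrp1*, whose product clears activator and serpin complexes, was at 16.8 to 21.1 RPKM, the highest of the partner and clearance receptors. Plasminogen itself, *Plg*, had 5 counts in WT unwounded replicate 2 and 0 elsewhere. In the smallest library, levels up to 0.222 CPM would still leave 0 counts by chance. The fibrinogen gene *Fgg* had at most 2 counts, and *Fga* and *Fgb* had 0. In all, 6 genes were at 0 in every library, these 2 together with *Cpb2*, *Serpinf2*, *Vtn* and *Eno1*. *Eno1* has a near-identical copy, *Eno1b*, which had 14 to 93 counts, and where reads common to both were counted is not known, so its 0 is uncertain. The other 5 that did not pass, *Fgg*, *Klkb1*, *Plg*, *Serpina5* and *Serpini1*, had at most 13 counts in any library.

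None of the 10 other genes that passed had an unadjusted P under 0.05 in the 4 tested comparisons, where 567 to 951 of all 14045 genes had one. Their median log2 fold changes were 0.06 in WT, 0.11 over all libraries, 0.09 between the wounded groups and 0.09 for the difference of responses. The same medians over all genes tested were 0.00, 0.01, −0.01 and 0.01.

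Correlations between members across libraries had both signs. Over the 7 libraries, which differ in group and include the one that stands apart (no values without it were computed), Pearson's r of log2 CPM was 0.59 between *Plau* and *Plaur*, −0.60 between *Plau* and *Serpinb2* and −0.47 between *Plau* and *Plat*. Between *Plat* and *Plaur* it was −0.22. The 3 genes most like each member over these libraries, among those with a mean log2 CPM of at least 3, were *Eif3k*, *Scube2* and *Arhgap19* for *Plau* (r of 0.973 to 0.983) and *Gclc*, *Tns3* and *Egfr* for *Plat* (0.963 to 0.983). They were *Scfd1*, *Stx3* and *Cry1* for *Plaur* (0.949 to 0.959), *Zfyve1*, *Tceal8* and *Mrpl24* for *Serpine2* (0.972 to 0.985) and *Rev3l*, *Numb* and *Marveld3* for *Serpinb2* (0.972 to 0.981). The best of at least 8885 genes were taken over 7 points, so high values of r are a description of these libraries only. *Egfr*, the receptor of epidermal growth factor, was at 242 and 263.7 CPM in the cKO-labelled wounded libraries and between 264.7 and 321 CPM in the other 5. *Plat* was also lowest in the cKO-labelled wounded libraries. Since *Egfr* was picked for its likeness to *Plat*, its order of libraries follows from the choice and is no separate result.

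Chromatin accessibility near the 5 genes was read from the deposited ATAC-seq peaks, with a window from 5 kb before to 5 kb after each gene. In the WT unwounded list, *Plat* and *Serpinb2* had a peak in the window, 2 of the 5 genes beside 33.3% of the 23376 genes matched to the annotation. All 5 genes had one in the WT wounded list (60.7% of all genes) and in the cKO-labelled unwounded list (56.7%). In the cKO-labelled wounded list 4 of the 5 had one, all but *Serpine2* (47.7%). The peaks numbered 2, 12, 11 and 5 in the same order, and the whole lists held 10769, 36872, 29364 and 22474 peaks, so the lists differed in length as the members' counts did. With the 10769 peaks of highest −log10 p taken from each list, 2, 2, 2 and 1 of the 5 genes had a peak, beside 33.3%, 30.3%, 31.6% and 30.4% of all genes. In the cKO-labelled unwounded list *Serpinb2* was then counted only through an upstream peak with 21 bases inside the window. Each list is 1 library and no test was made.

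Merged over lists, the 30 peaks made 15 regions, of which 6 were in 1 list, 4 in 2 lists, 4 in 3 lists and 1 in all 4 lists. The region in all 4 lists was at the start of *Plat*, chr8:22757274-22757823, with a fold enrichment over local background of 4.84 in WT unwounded, 4.20 in WT wounded, 4.59 in cKO-labelled unwounded and 5.15 in cKO-labelled wounded keratinocytes. *Plat* also had regions in intron 1 (chr8:22759079-22759346) and downstream (chr8:22784086-22784482), both in the WT wounded and cKO-labelled unwounded lists. At *Plau*, the peaks of the region chr14:20836380-20836947 spanned the start in WT wounded (4.15) and cKO-labelled unwounded (3.46) keratinocytes and lay in intron 1 in cKO-labelled wounded keratinocytes (3.88), sharing 58 bases of intron 1. A region downstream of *Plau*, chr14:20845092-20845283, was in the WT wounded list. At *Serpine2*, a region at the start and exon 1, chr1:79858221-79858779, was in the WT wounded (3.78) and cKO-labelled unwounded (3.48) lists.

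At *Plaur*, a region in intron 3 was in all lists but WT unwounded, with a fold enrichment of 4.47 in WT wounded, 4.37 in cKO-labelled unwounded and 3.75 in cKO-labelled wounded keratinocytes. The median peaks of these lists had a fold enrichment of 4.21, 3.996 and 4.36. The 3 other *Plaur* peaks were each in 1 list: chr7:24461469-24461738 upstream and chr7:24480953-24481882 downstream in WT wounded, the latter with 16 bases inside the window, and chr7:24462844-24463026 in intron 1 in cKO-labelled unwounded keratinocytes. At *Serpinb2*, a region upstream of the gene, chr1:107505884-107506471, had a fold enrichment of 5.47 in WT wounded and 5.41 in cKO-labelled unwounded keratinocytes, the highest of the 30 peaks. It reached 49 and 21 bases into the window. A region that touches the *Serpinb2* start, chr1:107511240-107511514, was in all lists but WT unwounded, with a fold enrichment of 4.16, 3.49 and 3.28 in WT wounded, cKO-labelled unwounded and cKO-labelled wounded keratinocytes. Another region, chr1:107525554-107526723, was in all lists but cKO-labelled wounded. Its cKO-labelled unwounded peak reached the last exon, and its WT peaks lay downstream of that exon. The remaining *Serpinb2* regions, each in 1 list, were chr1:107512355-107512540 in intron 1 in cKO-labelled wounded and chr1:107527936-107528917 downstream of the basic transcripts in cKO-labelled unwounded keratinocytes. The latter ends just before the annotated start of the neighboring *Serpinb10*, at 107529003 on the same strand, so it may belong to either gene.

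**Figure D2:**
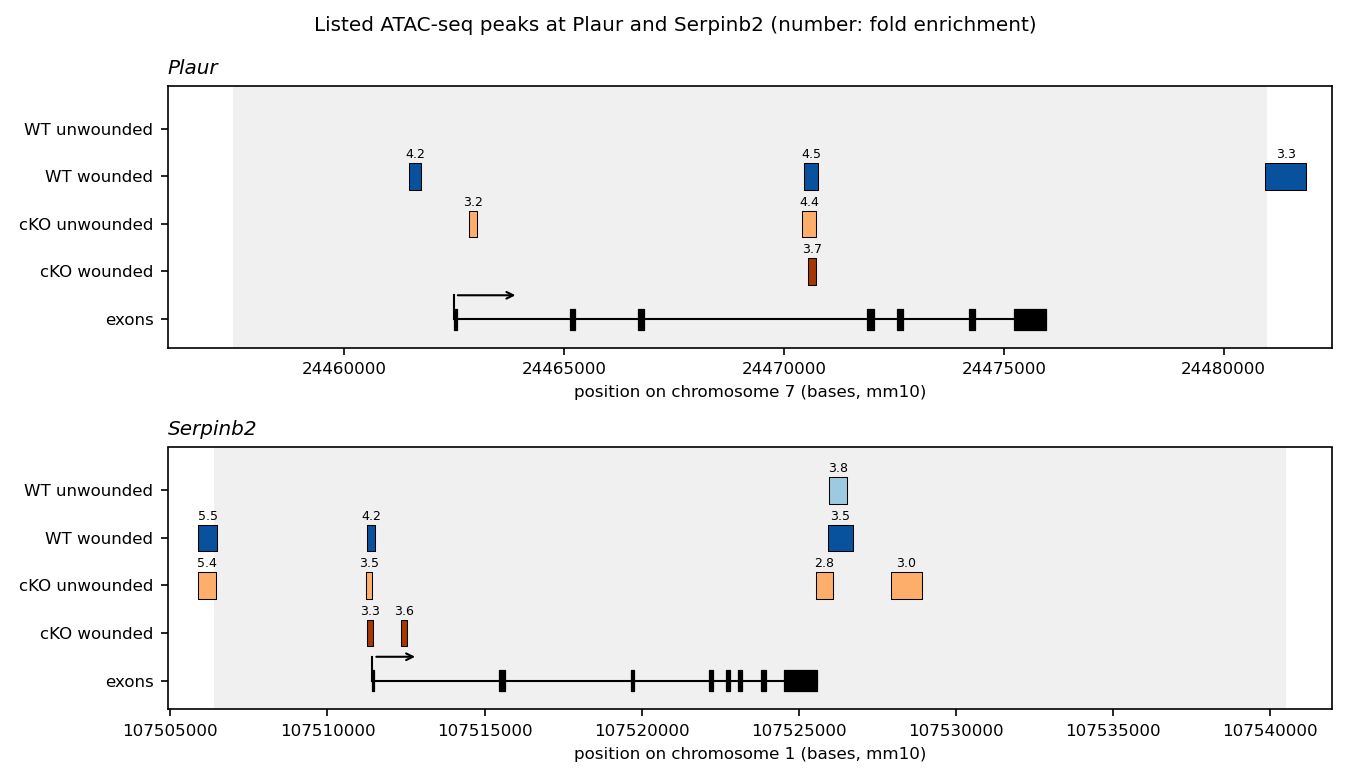
Deposited peaks (boxes, 1 row per ATAC-seq list, with the fold enrichment above each) at *Plaur* and *Serpinb2*, along the chromosome (x axis, bases, mm10), with exons (black), the start of transcription (arrow) and the window of 5 kb around the annotated gene (grey). The intron 3 region of *Plaur* is in 3 lists at 3.7 to 4.5, and WT unwounded keratinocytes have 1 of the boxes shown.

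The parts that the lists share at these *Plaur* and *Serpinb2* regions were read from the genome. Shared regions of *Plat*, *Plau* and *Serpine2* were not searched, although bases there were also listed in several conditions. Of the 4 parts read, the 3 with a match to either motif below are printed. All 4 were searched for TGANTCA, the core bound by AP-1 factors, and for AACNNGTT, a core bound by grainyhead factors such as GRHL3. Both read the same on either strand. Capitals mark TGANTCA matches, and the sequences are of the plus strand of GRCm38 from RefSeq. The first is the part of *Plaur* intron 3 shared by 3 lists, the next the middle 300 bases of the upstream *Serpinb2* region shared by 2 lists, which lie outside the window of 5 kb that the region's end reaches, and the last the part before the *Serpinb2* start shared by 3 lists.
*Plaur* chr7:24470551-24470730: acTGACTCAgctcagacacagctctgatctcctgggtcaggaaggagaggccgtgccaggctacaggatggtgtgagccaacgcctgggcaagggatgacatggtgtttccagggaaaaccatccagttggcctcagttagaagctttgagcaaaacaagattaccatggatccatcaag
*Serpinb2* chr1:107506019-107506318: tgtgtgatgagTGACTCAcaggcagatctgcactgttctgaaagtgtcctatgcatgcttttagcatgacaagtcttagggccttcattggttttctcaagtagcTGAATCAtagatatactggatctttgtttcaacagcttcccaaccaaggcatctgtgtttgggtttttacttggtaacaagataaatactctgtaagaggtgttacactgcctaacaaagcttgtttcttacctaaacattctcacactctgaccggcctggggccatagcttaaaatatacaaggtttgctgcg
*Serpinb2* chr1:107511254-107511422: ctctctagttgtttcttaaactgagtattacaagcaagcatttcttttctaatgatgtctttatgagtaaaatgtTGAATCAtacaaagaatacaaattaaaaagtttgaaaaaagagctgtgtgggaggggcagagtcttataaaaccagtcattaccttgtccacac

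The *Plaur* sequence held 1 TGANTCA match, the upstream *Serpinb2* sequence 2 and the *Serpinb2* start sequence 1. Windows of the same lengths at the middle of WT wounded peaks held a match in 20.1%, 27.7% and 19.2% of cases. The remaining shared part, chr1:107525952-107526083 downstream of the basic *Serpinb2* transcripts, held 0 matches of TGANTCA, beside 15.8% of such windows, and 0 of AACNNGTT, beside 3.13%. No AACNNGTT match was in the 3 printed sequences, beside 4.18%, 6.56% and 3.97% of the same windows. In RefSeq's promoter table of the same build, with entries of 300 bases around each start, *Plaur* and *Serpine2* have 1 entry and *Serpinb2* has 2, and *Plau* and *Plat* have none. The *Plaur* promoter and both *Serpinb2* promoters held 1 TGANTCA match each, that of both *Serpinb2* entries being the site already counted in the printed start sequence, and the *Serpine2* promoter held 0, beside 7.81% of all promoters in the table. None held AACNNGTT, beside 4.20% of all promoters. A match is a description of the letters and says nothing of binding.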

How the data were processed

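The members and lists were chosen with earlier results of these data known. For RNA-seq, the deposited values are counts, 1 whole number per gene and library. The study's methods name Kallisto 0.46.2 and the mm10 genome, and which step made the counts is not given in the sources used here. Ambiguous reads (1.34% to 1.45%) and reads without a unique alignment (3.46% to 4.74%) were left out. For ATAC-seq the study's methods name bowtie2 2.2.5 and MACS2 2.1.4, with 1 pooled library per condition. Each deposited peak carries its fold enrichment over local background, its −log10 p and its −log10 q (p-value and q-value). The deposited score was not used.

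Genes were filtered with edgeR's filterByExpr and normalized by TMM. They were tested two-sided with the quasi-likelihood test in 1 fit of 4 groups, or with genotype and wounding as terms for all libraries. The biological coefficient of variation was 31.6% (32.7% in the additive model). An item withheld for evaluation is not reported here. P-values were adjusted over all 14045 genes, and the edgeR fits of WT and of all libraries were tested on simulated data. Genes named in the text are the members, other genes of the plasminogen system, the 3 genes most like each member, markers, *Grhl3*, *Xist*, *Eno1b* and *Serpinb10*. RPKM used exon-union lengths from GENCODE vM21. Alternatives were DESeq2, RLE factors, other filters, a replicate term, leaving out libraries, and other peak thresholds, list lengths, windows and overlaps. Versions: Python 3.11.15 (matplotlib 3.10.9, pandas 2.3.3, numpy 2.4.6) and R 4.3.3 (DESeq2 1.42.0, edgeR 4.0.16).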

Additional observations from a re-analysis of the deposited data

Results flagged for a closer look

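The wound response of *Plau* differed between the genotype labels by the unadjusted threshold, and not by the adjusted one. An arm of this contrast is a lone library, so the P-value cannot decide whether the responses differ. The cKO-labelled estimate was larger by 0.87 on the log2 scale (standard error 0.40), with an unadjusted P of 0.0437 and an adjusted p of 0.713 (Benjamini-Hochberg, edgeR). Of all genes tested, 6.77% passed the same unadjusted threshold. Over the 11 alternatives the difference ranged from 0.54 to 1.34, and 5 of them had an unadjusted P of 0.05 or more. The value rests on the lone cKO-labelled unwounded library, whose spread is taken from the other groups, with 14854 counts of *Xist* where the others had at most 32, and sex and genotype cannot be told apart in it. The same library was highest in summed hair follicle genes, at 5670 CPM against 2568 to 3718 CPM, and lowest in wound keratinocyte genes, at 2623 CPM against 4469 to 9689 CPM. Groups of 2 libraries or fewer are too small to check for a single far value.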

How the results depend on the processing

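Over the 7 libraries together, *Plau* and *Plaur* kept an unadjusted P under 0.05 in 11 of 12 alternatives each, and lost it without the cKO-labelled unwounded library, which left 0 of the 5 genes against 2 in the other fits. By edgeR with Benjamini-Hochberg their adjusted p was 0.331 and passed without a filter (0.00125 for *Plau*, 0.0449 for *Plaur*) and, for *Plau*, without WT wounded replicate 1 (0.0133). In other comparisons single libraries moved the values, and the cause was not tested.

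In WT wounded against unwounded keratinocytes, edgeR gave 1 of the 5 genes, *Plau*, an unadjusted P under 0.05 without a filter. With the replicate block it was *Plau* again (0.44, unadjusted P = 0.0495). Of all genes, 907 had an unadjusted P under 0.05 without a filter and 719 with the block, against 680 with the filter and no block. Without single libraries the log2 fold change ranged from −0.00162 to 0.80 for *Plau*, −0.12 to 0.43 for *Plat*, 0.08 to 0.90 for *Serpine2* and −0.38 to 0.60 for *Serpinb2*. Between the wounded groups leaving out libraries gave 0 to 1 of the 5 genes and 0 to 1 of the 21 others. The ranges were −0.59 to 0.21 for *Plau*, −0.84 to −0.29 for *Plat*, −0.21 to 0.50 for *Plaur*, −0.16 to 0.93 for *Serpine2* and −0.0137 to 0.41 for *Serpinb2*. Over all libraries the ranges were −0.37 to 0.19 for *Plat*, −0.35 to 0.56 for *Serpine2* and −0.30 to 0.18 for *Serpinb2*. *Serpine2* turned to 0.0836 with the replicate block. For the difference of responses *Serpinb2* ranged over the alternatives from −0.81 to 0.17, *Plaur* from 0.61 to 1.43 and *Plat* from −1.05 to −0.49. For the same difference *Serpine2* ranged from −1.92 to −0.83. Where leaving out a library left 1 in a group, that library was assumed to vary like the others. No value exists for that difference without the cKO-labelled unwounded library.

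Counts of all genes with an adjusted p under 0.05 moved most. In WT they were 4, with 24 by DESeq2, 96 without a filter, 0 with at least 10 counts in every library, 0 with only the 4 libraries compared and 0 to 29 without single libraries. Between the wounded groups they were 0, with 3 by DESeq2, 51 without a filter and 0 to 21 without single libraries, and genes with an unadjusted P under 0.05 numbered 420 to 855 against 567. Over all libraries they were 5, with 126 by DESeq2, 305 without a filter, 2 with at least 10 counts and 0 to 119 without single libraries. For the difference of responses they were 26, with 85 by DESeq2, 203 without a filter, 1 with at least 10 counts, 78 with the replicate block and 11 to 88 without single libraries.

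Whether replicate numbers pair the libraries is not given by the labels. The correlation across genes of same-numbered deviations was 0.154 between WT unwounded and WT wounded. It was −0.01 between WT unwounded and cKO-labelled wounded and −0.04 between the wounded groups. The title of the cKO-labelled unwounded library gives replicate 2 and its file name replicate 1; the block used the title, and no fit was made with the other number. Under the 2-fold rule the other settings gave 2 genes counted as higher as well, with 0 to 1, *Serpine2*, as lower without single wounded libraries, where all genes past 2-fold numbered 2567 and 2732 against 1346.

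For peaks, a fold enrichment of at least 4 left 1, 4, 3 and 1 of the 5 genes in the WT unwounded, WT wounded, cKO-labelled unwounded and cKO-labelled wounded lists, beside 22.9%, 48.1%, 39.2% and 38.7% of all genes. A q of at most 0.01 left 2, 5, 3 and 2, beside 28.5%, 56.5%, 47.9% and 43.2%. Equal list lengths left 2, 2, 2 and 1, beside 33.3%, 30.3%, 31.6% and 30.4%. At equal lengths and at a fold enrichment of at least 4, *Serpinb2* was counted in the cKO-labelled unwounded list only through a peak with 21 bases inside the window. Of the 21 other genes 10, 14, 13 and 12 had a peak, beside 33.3%, 60.7%, 56.7% and 47.7% of all genes. They were 5, 9, 11 and 9 at a fold enrichment of at least 4, and 9, 9 and 8 in the last 3 lists at equal length, beside the shares above. Windows of 1 kb and an overlap of 50% left the counts of the 5 genes unchanged, while 29.9%, 55.0%, 51.2% and 43.2% of all genes had a peak at 1 kb. A window of 10 kb added *Plau* in WT unwounded, where 37.0% of all genes had a peak. In RNA-seq, *Serpine2* had 11 to 33 counts per library, and its fold changes above are limited by these low counts.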

Other observations

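The summed level of the 2 activators, *Plau* and *Plat*, was 36.6 CPM in the cKO-labelled unwounded library and between 59.7 and 111 CPM in the other 6. The ratio of *Plau* to *Plaur* counts was 4.86 and 13.8 in the WT wounded libraries and 7.43 and 17.2 in the WT unwounded libraries, so replicates of 1 group spanned most of its range.

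These data are limited by 2 libraries or fewer per group, by 1 library that differs in sex from the others and is alone in its group, and by peak lists of 1 pooled library each. Low counts limit *Serpine2* and, less so, *Plaur* and *Plat*. The counts measure RNA, and the activity of plasmin, its activators and its inhibitors was not measured. Levels across genes use annotated exon lengths, and the transcripts made by these cells were not identified. Peaks within 5 kb of a gene are not thereby tied to its transcription.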
